A study of Mus musculus with 9 samples.

Results

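Integrins are the cell-surface receptors by which cells grip the extracellular matrix and, in some pairs, other cells. Described here are 9 integrin subunits across the libraries of a mouse mammary tumour line: the alpha subunits Itga2, Itga3, Itga5, Itga6 and Itgav, and the beta subunits Itgb1, Itgb2, Itgb4 and Itgb5. They were taken by gene symbol, a rule that uses no measured value, although the set was proposed with earlier results of these data known. They make up 9 of the 19072 gene identifiers in the deposited tables. All 9 passed the filter on low counts. An integrin is a pair of 1 alpha and 1 beta chain. The alpha chain largely sets what is bound, and the tail of the beta chain is tied through talin, kindlin and other linkers to actin and to adhesion kinases. The beta chain Itgb4 differs from the others in that its long tail reaches keratin filaments in hemidesmosomes. In epithelial and mammary tumour cells, pairs of Itgb1 with Itga2, Itga3 and Itga5 are known as receptors for collagen, laminin and fibronectin.

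RNA sequencing was done on 9 libraries of 4T1-TGL, a breast cancer cell line of BALB/c mice grown in DMEM/F12 medium. The 3 Ctrl libraries carry wild-type Malat1, and KO1 and KO2 are 2 knockout lines of the long noncoding RNA Malat1, with 3 libraries each. No drug or other agent is named for any group. How the knockouts were made, and whether each line came from 1 cell, is not given in the sources used here, and each knockout genotype is 1 line, so an effect of the line and one of the knockout cannot be told apart. Nothing in the labels tells whether the replicates of a group are separate cultures, and p-values here thus reflect only the spread between these libraries, which may be technical.

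Library totals ran from 30655924 to 35406395 expected counts, and each library listed between 15100 and 16488 genes. The targeted RNA, Malat1, stood at 462 ± 54.9 CPM (counts scaled to library size; SD, n = 3) in Ctrl, 3.40 ± 0.669 in KO1 and 126 ± 31.5 in KO2. The fitted KO2 level was 27.2% of Ctrl and the KO1 level 0.737%, so the library group labelled KO2 kept a share of the transcript. As markers of the cell type, the keratins Krt8 and Krt18 were at 373 ± 15.0 and 333 ± 24.6 CPM in Ctrl, whereas the epithelial adhesion genes Epcam and Cdh1 were under 1 CPM in all 3 groups. KO2 replicate 2 stood apart at low counts: 88 genes had at least 10 counts there and at least 5 times the count of each other KO2 library, where the same number, taken within its own group, was 6 to 37 for each of the other libraries. Among them were Col1a2 with 49 counts beside 0 and 1, Col3a1 with 66 beside 1 and 2, Postn with 38 beside 1 and 1, and the endothelial gene Cdh5 with 34 beside 1 and 0. None of the 9 subunits was among these genes. In a bulk sample, fewer cells of a kind and less RNA per cell cannot be told apart.

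The 9 subunits spanned a wide range of levels. In FPKM, which is scaled for transcript length and so can be compared between genes, Itga3 was highest in Ctrl at 180 ± 24.6 (SD, n = 3) and Itgb1 followed at 146 ± 1.02. Next came Itga6 at 87.1 ± 8.37 and Itgav at 44.9 ± 1.26, each separated from its neighbours by more than the range of its libraries. The subunits Itga5, Itgb2, Itga2 and Itgb5 lay together between 13.5 and 15.8 FPKM with overlapping libraries, and Itgb4 was lowest at 6.92 ± 0.678. The order differed in the knockout lines. In KO1 the libraries of Itga3 and Itgb1 overlapped, Itgb2 stood above Itga5, and Itga2 was the lowest. In KO2, Itgb2 stood above Itgav, and Itgb4 above Itgb5 and Itga5, with no overlap between neighbouring ranges.

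**Figure D1:**
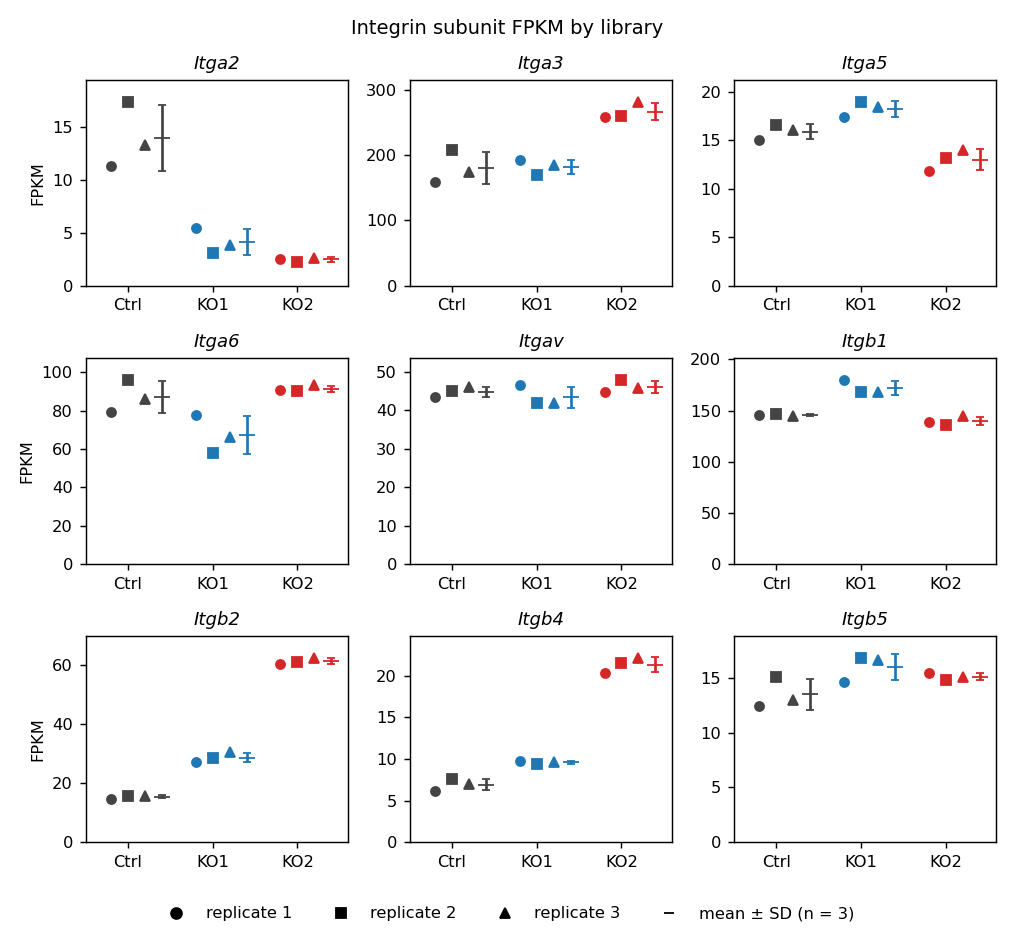
FPKM (y axis, from 0, a separate scale per panel) of the 9 integrin subunits in Ctrl, KO1 and KO2, with each library a point and mean ± SD beside it (n = 3). Itga2 is lower, and Itgb2 and Itgb4 are higher, in every library of both knockout lines than in any Ctrl library.

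Against the shared Ctrl libraries, 5 of the 9 subunits passed an edgeR adjusted p of 0.05 in KO1, 3 higher and 2 lower. Of the 13682 tested genes 30.5% did, 15.6% higher and 14.9% lower. In KO2 6 of 9 passed, 4 higher and 2 lower, against 54.1% of all tested genes (24.6% higher and 29.5% lower), so the share of subunits is near that of genes at large. The median log2 fold change over the 9 was 0.17 in KO1 and 0.15 in KO2, beside medians of all tested genes of -0.0017 and -0.03. Only Itga2, Itgb2 and Itgb4 passed in both lines in the same direction, 3 of 9 beside 14.1% of all tested genes. Of these 2 were higher and 1 lower, beside 6.31% and 7.83% of all tested genes. When KO2 was set directly against KO1, 8 of 9 differed, 5 higher and 3 lower in KO2, beside 55.0% of all tested genes (25.5% higher and 29.5% lower). That count fell to 5 when KO2 replicate 2 was left out.

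**Figure D2:**
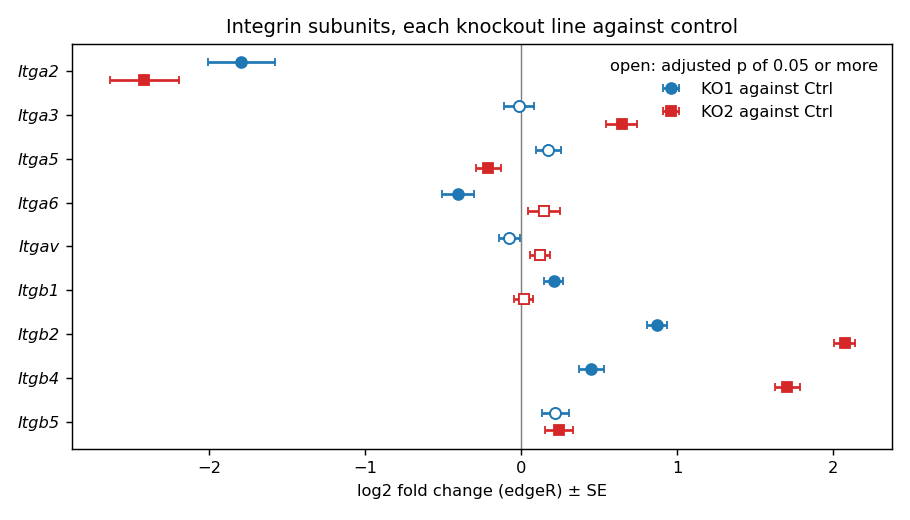
The log2 fold change (x axis, edgeR, with its SE) of each integrin subunit in KO1 and KO2 against Ctrl; filled points passed an adjusted p of 0.05 and open points did not. Itga2 lies farthest to the left in both lines, at -1.80 and -2.42, and Itgb2 farthest to the right, at 0.87 and 2.07.

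Among the alpha chains, Itga2 is the collagen-binding partner of Itgb1. It lies at chr13:114833081-114932100 (GRCm38). Its FPKM was 11.3, 17.4 and 13.3 in Ctrl replicates 1 to 3, 5.48, 3.05 and 3.82 in KO1, and 2.53, 2.27 and 2.66 in KO2. Every knockout library lay below every Ctrl library, and every KO2 library below every KO1 library. The fitted log2 fold change was -1.80 ± 0.214 (SE) in KO1, a 3.47-fold fall (edgeR adjusted p = 0.000177), and -2.42 ± 0.222 in KO2, a 5.34-fold fall (edgeR adjusted p = 1.12e-05). KO2 was below KO1 by a further -0.62 ± 0.221 (edgeR adjusted p = 0.0362). That smaller difference missed the threshold with no filter on low counts, both in edgeR and with limma on log2 of FPKM plus 1. Limma-voom and the replicate block also lost the call, as did leaving out KO1 replicate 1 or 3 or any of the KO2 replicates. These last 5 fits gave it log2 values between -0.36 and -0.68 and edgeR adjusted p between 0.0557 and 0.139. Over all 9 fits with a library left out the value ran from -0.77 to -0.36.

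Itgb1, the partner chain of Itga2, stayed close to Ctrl in KO2 but was higher in KO1, by 0.21 on the log2 scale. The bases upstream of the RefSeq start of Itga2 are shown because this subunit fell in both lines, and those of Itgb1 as its partner. Each is the 250 bases before the start, 5′ to 3′, from RefSeq on GRCm38.p6, with capitals marking a match on either strand to 1 of 4 motifs searched: the GC box GGGCGG, the AP-1 motif TGANTCA, the TEAD motif GGAATG and the ETS motif CCGGAA. The Itga2 window is at chr13:114932101-114932350 on the minus strand and the Itgb1 window at chr8:128685404-128685653 on the plus strand.
Itga2: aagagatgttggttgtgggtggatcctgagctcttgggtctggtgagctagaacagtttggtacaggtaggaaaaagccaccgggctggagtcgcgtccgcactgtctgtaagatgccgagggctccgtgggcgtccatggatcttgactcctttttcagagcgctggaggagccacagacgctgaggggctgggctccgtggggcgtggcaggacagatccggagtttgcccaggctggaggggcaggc
Itgb1: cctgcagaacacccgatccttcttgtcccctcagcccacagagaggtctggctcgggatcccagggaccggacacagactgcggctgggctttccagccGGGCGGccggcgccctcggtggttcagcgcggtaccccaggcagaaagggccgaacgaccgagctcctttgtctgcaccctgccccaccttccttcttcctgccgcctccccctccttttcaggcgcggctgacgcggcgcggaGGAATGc
The Itga2 window, with a GC content of 60.8%, held none of these letters, and the Itgb1 window, at 68.0%, held 1 GC box and 1 TEAD match. Of 32851 promoter windows of this length, 32.7% held the GC box, 6.75% AP-1, 12.6% TEAD and 12.0% ETS. Windows of 6 of the 9 subunits were in the table, and the other subunits were Itga6, Itgb2 and Itgb4. Itga3 held 3 GC boxes and 1 ETS match, Itgb5 3 GC boxes and Itga5 2, and Itgav had no match. The Itgav window, chr2:83724147-83724396, lies inside the gene span given below. The Itga3 window, chr11:95076715-95076964, runs across the start of its gene span. Neither window ends at the gene start given here, so neither shows only bases upstream of it. A match is only a run of letters and shows no binding.

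Itga3, a laminin receptor chain and the most abundant of the alpha subunits here, lies at chr11:95044475-95076844. Its FPKM was 159, 207 and 175 in Ctrl, 192, 170 and 184 in KO1 and 257, 260 and 281 in KO2. The Ctrl and KO1 libraries overlapped, and all KO2 libraries were above both. In KO2 the log2 fold change was 0.64 ± 0.0977, a 1.56-fold rise (edgeR adjusted p = 0.000236). In KO1 it was -0.02 ± 0.0973 (edgeR adjusted p = 0.925), with a sign that turned to positive under upper-quartile and total-count scaling and on the FPKM scale. The KO2 level was above that of KO1 by 0.66 ± 0.0977 (edgeR adjusted p = 0.000188). This sign in KO1 also turned without Ctrl replicate 2, at 0.10, and without KO1 replicate 2, at 0.024.

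Itga6, the other laminin-binding alpha chain, pairs with Itgb1 and, in hemidesmosomes, with Itgb4. It lies at chr2:71786886-71858427. Its FPKM was 79.3, 95.9 and 86.2 in Ctrl, 77.7, 57.6 and 66.1 in KO1 and 90.6, 90.2 and 93.1 in KO2. The KO1 libraries were all below Ctrl, though KO1 replicate 1 came close to Ctrl replicate 1, and KO2 lay within the Ctrl range. Its log2 fold change was -0.41 ± 0.104 in KO1 (edgeR adjusted p = 0.0123) and 0.14 ± 0.104 in KO2 (edgeR adjusted p = 0.261). The difference of KO2 from KO1 was 0.55 ± 0.105 (edgeR adjusted p = 0.00101).

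Itga5, the fibronectin-binding partner of Itgb1, lies at chr15:103344286-103366791. Its FPKM was 15.0, 16.5 and 16.0 in Ctrl, 17.3, 18.9 and 18.4 in KO1 and 11.8, 13.1 and 14.0 in KO2. The 3 groups did not overlap, with KO1 above and KO2 below Ctrl. Fitted in edgeR, the log2 fold change was 0.17 ± 0.0801 in KO1 (edgeR adjusted p = 0.127) and -0.21 ± 0.0805 in KO2 (edgeR adjusted p = 0.0439). Compared directly, KO2 was below KO1 by -0.39 ± 0.0804 (edgeR adjusted p = 0.0019). The KO2 fall missed the threshold when any of 6 libraries was left out (Ctrl 2, Ctrl 3, KO1 2, KO1 3, KO2 1 and KO2 2), with values from -0.14 to -0.22 and edgeR adjusted p from 0.0521 to 0.188. It was also lost with DESeq2 size factors, upper-quartile scaling, no filter, and a fit of Ctrl and KO2 alone.

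Itgav pairs with several beta chains and binds RGD-containing matrix proteins such as vitronectin. It lies at chr2:83722303-83806917. Its FPKM was 43.6, 45.0 and 46.1 in Ctrl, 46.7, 41.9 and 41.9 in KO1 and 44.8, 48.0 and 45.8 in KO2. The 3 groups overlapped in FPKM. Relative to Ctrl, the log2 fold change was -0.08 ± 0.065 in KO1 (edgeR adjusted p = 0.404) and 0.12 ± 0.065 in KO2 (edgeR adjusted p = 0.148). KO2 stood 0.19 ± 0.065 above KO1 (edgeR adjusted p = 0.0251). This call was lost under total-count scaling and on the FPKM scale, and with the replicate block at an edgeR adjusted p of 0.0573. It was also lost without KO1 replicate 3 and KO2 replicates 2 or 3, at 0.17, 0.17 and 0.20. Gm13684, antisense to Itgav, shares 634 exonic bases with it in the GENCODE M21 annotation, and whether the counting used strand is not given in the sources used here.

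Of the beta chains, Itgb1 is the common partner of Itga2, Itga3, Itga5 and, in part, Itga6 and Itgav. It lies at chr8:128685654-128733579. Its FPKM was 145, 147 and 145 in Ctrl, 180, 168 and 168 in KO1 and 139, 136 and 144 in KO2. In FPKM all KO1 libraries were above and all KO2 libraries just below those of Ctrl, while Ctrl and KO2 overlapped in CPM. The log2 fold change was 0.21 ± 0.0603 in KO1 (edgeR adjusted p = 0.0226) and 0.02 ± 0.0603 in KO2 (edgeR adjusted p = 0.844), the latter turning negative under total-count scaling and on the FPKM scale. KO2 lay below KO1 by -0.19 ± 0.0604 (edgeR adjusted p = 0.0188). The KO1 rise missed the threshold without KO1 replicate 1, Ctrl replicate 1 or Ctrl replicate 3, at 0.17, 0.21 and 0.20, in a fit of Ctrl and KO1 alone, and with the replicate block at 0.21 (edgeR adjusted p = 0.0587). The KO2 against KO1 difference missed it with no filter on low counts and without KO1 replicate 1, KO2 replicate 1 or KO2 replicate 2, at -0.16, -0.18 and -0.17, and the KO2 value against Ctrl turned to -0.014 without KO2 replicate 3.

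Itgb2 is the beta chain of the leukocyte integrins and lies at chr10:77530329-77565708. Its FPKM was 14.7, 15.6 and 15.8 in Ctrl, 27.1, 28.4 and 30.3 in KO1 and 60.3, 60.9 and 62.2 in KO2. The 3 groups were apart in every library, rising from Ctrl through KO1 to KO2. Its log2 fold change was 0.87 ± 0.0651 in KO1, or 1.83-fold (edgeR adjusted p = 2.78e-06), and 2.07 ± 0.0666 in KO2, or 4.21-fold (edgeR adjusted p = 8.89e-10). KO2 exceeded KO1 by 1.20 ± 0.0646 (edgeR adjusted p = 5.75e-08). The alpha chains with which Itgb2 pairs in leukocytes were nearly unread: over all 9 libraries Itgal had 11 counts, Itgam 59 and Itgax 3, while Itgb2 had 28027. Itgam had 2, 7 and 6 counts in Ctrl, 2, 1 and 0 in KO1 and 9, 18 and 14 in KO2, too few to pass the filter. Of other leukocyte genes, the phosphatase Ptprc (CD45) had 6 counts, Cd3e 1 and Spi1 15. The summed level of 16 leukocyte markers was 20.6 to 23.3 CPM in Ctrl, 35.7 to 42.4 in KO1 and 1.80 to 3.22 in KO2, with 4, 3 and 5 of the markers at 0. Most of it was the actin bundler Lcp1 in Ctrl and KO1, at 17.7 ± 0.419 and 34.6 ± 4.08 CPM, and the kinase Lck in KO2, at 1.78 ± 0.342 CPM, where Lcp1 was 0.147 ± 0.129. The part of leukocyte markers in the Itgb2 values was not tested.

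Itgb4, the laminin receptor chain of hemidesmosomes, which pairs only with Itga6, lies at chr11:115974725-116008412. Its FPKM was 6.21, 7.56 and 6.99 in Ctrl, 9.81, 9.43 and 9.63 in KO1 and 20.4, 21.5 and 22.1 in KO2. All 9 libraries fell in 3 separate ranges in the order Ctrl, KO1, KO2. Fitted in edgeR, the log2 fold change was 0.45 ± 0.0801 in KO1, or 1.36-fold (edgeR adjusted p = 0.00151), and 1.70 ± 0.0812 in KO2, or 3.26-fold (edgeR adjusted p = 2.32e-08). KO2 stood 1.26 ± 0.0800 above KO1 (edgeR adjusted p = 2.29e-07). The antisense gene B230344G16Rik shares 537 exonic bases with Itgb4. The keratins of the simple epithelium Krt8 and Krt18 moved the same way, with log2 fold changes of 0.77 and 0.94 in KO1 and 1.5 and 1.79 in KO2, while Krt7 was 48.6 ± 1.02 CPM in Ctrl, 51.3 ± 2.35 in KO1 and 0.773 ± 0.103 in KO2. The summed level of 11 epithelial markers was 755 to 771 CPM in Ctrl, 1220 to 1470 in KO1 and 2120 to 2320 in KO2, with 1, 2 and 0 of them at 0 in the group. Most of that sum was Krt8 and Krt18 in each group. Of the 6 tested markers, 3 were higher and 2, Krt7 and Ocln, lower in KO2, beside 24.6% and 29.5% of all tested genes. The part of these markers in the Itgb4 values was not tested.

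Itgb5 pairs with Itgav in a vitronectin receptor and lies at chr16:33829665-33949338. Its FPKM was 12.4, 15.1 and 12.9 in Ctrl, 14.7, 16.8 and 16.6 in KO1 and 15.4, 14.8 and 15.1 in KO2. Ctrl replicate 2 overlapped both knockout lines. Relative to Ctrl, the log2 fold change was 0.22 ± 0.0889 in KO1 (edgeR adjusted p = 0.0866) and 0.24 ± 0.0890 in KO2 (edgeR adjusted p = 0.0396), with a direct difference of 0.02 ± 0.0888 (edgeR adjusted p = 0.847) that turned negative under total-count scaling, on the FPKM scale and, at -0.037, without KO1 replicate 1. The KO2 rise missed the threshold without Ctrl replicate 1, Ctrl replicate 3, KO1 replicate 3 or any library of KO2, with values from 0.19 to 0.26, and also under total-count scaling and on the FPKM scale. The KO1 value passed it without Ctrl replicate 2, at 0.31, and without KO1 replicate 1, at 0.28.

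The make-up of each chain class was set out in shares of its summed FPKM. Itga3 made up 52.6 ± 1.44% of the summed alpha FPKM in Ctrl, 57.8 ± 1.08% in KO1 and 63.5 ± 0.787% in KO2. The share of Itga2 was 4.06 ± 0.452%, 1.29 ± 0.293% and 0.593 ± 0.0389% in the same order. Among the 4 beta chains, the Itgb1 share was 80.3 ± 1.00% in Ctrl, 76.0 ± 1.54% in KO1 and 58.9 ± 0.473% in KO2. Itgb2 took 8.46 ± 0.255%, 12.7 ± 0.913% and 25.8 ± 0.301%, and Itgb4 3.81 ± 0.309%, 4.26 ± 0.0295% and 9.00 ± 0.281%. The Itgb1 and Itgb2 shares of the 3 groups did not overlap. Shares of a sum are bound to move against each other, so they carry no test.

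**Figure D3:**
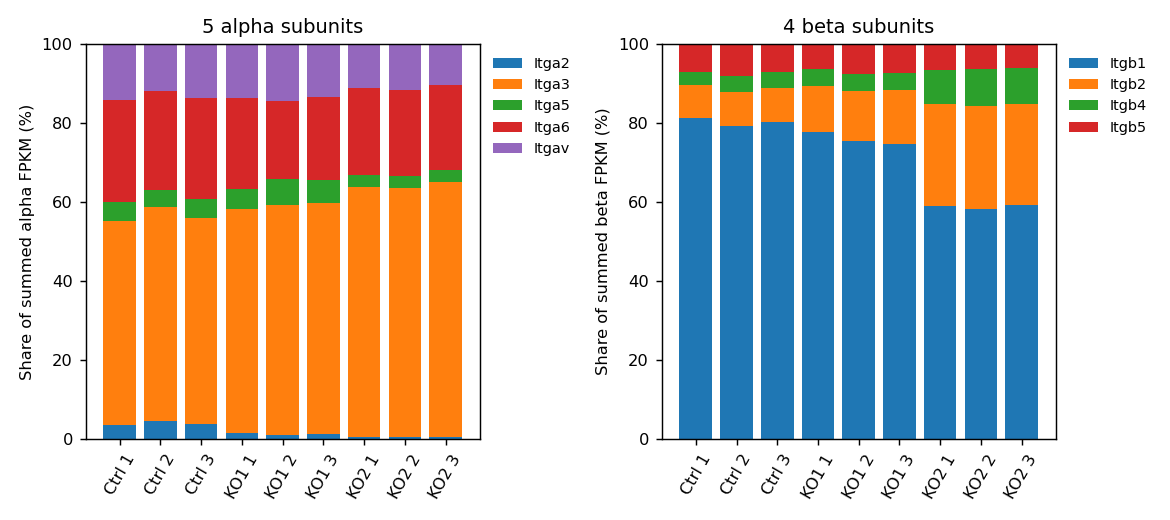
Stacked bars of each library's summed FPKM of the 5 alpha (left) and 4 beta subunits described (right), in percent. Bars are split by subunit for Ctrl, KO1 and KO2 replicates 1 to 3, and other chains such as Itgb3 are not in the sums. The mean Itga3 share of the alpha sum is 52.6% in Ctrl and 63.5% in KO2, and the mean Itgb1 share of the beta sum 80.3% and 58.9%.

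The ratio of known partners was compared in the same way, with no test. Itga6 FPKM over Itgb4 FPKM was 12.6 ± 0.235 in Ctrl, 6.97 ± 0.907 in KO1 and 4.28 ± 0.141 in KO2, 3 ranges without overlap. The summed FPKM of the 5 alpha subunits over Itgb1 FPKM was 2.35 ± 0.243, 1.83 ± 0.0816 and 3.00 ± 0.0577, lowest in KO1 and highest in KO2. Itgav over Itgb5 was 3.35 ± 0.315, 2.73 ± 0.391 and 3.06 ± 0.165, with overlapping libraries. This ratio leaves out Itgb3, another partner of Itgav, which was 31.2 ± 5.21 FPKM in Ctrl, 7.28 ± 2.10 in KO1 and 5.81 ± 0.471 in KO2. It therefore does not give the balance of Itgav with all its partners. Within Ctrl, replicate 2 was the highest library for 8 of the 9 subunits and replicate 1 the lowest for 8. In KO2, replicate 3 was highest for 7. The same was not counted over all tested genes, so these counts may not be particular to the subunits.

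Beyond these 9, 15 of 17 other integrin subunits looked for were listed and 9 were tested. In KO1 3 rose and 2 fell, and in KO2 4 rose and 3 fell, with median log2 fold changes of 0.19 and -0.07. Of all tested genes 30.5% and 54.1% passed. Itgb3, the partner of Itgav in a further vitronectin receptor, had FPKM of 32.7, 25.4 and 35.5 in Ctrl, 5.36, 9.52 and 6.96 in KO1 and 5.28, 6.17 and 5.99 in KO2. All knockout libraries were below all Ctrl libraries, and the lines overlapped each other. The log2 fold change was -2.13 ± 0.198 in KO1 (edgeR adjusted p = 3.74e-05) and -2.34 ± 0.2 in KO2 (edgeR adjusted p = 7.42e-06), with a difference of -0.22 ± 0.195 between the lines (edgeR adjusted p = 0.374).

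The collagen receptor chain Itga1 rose in both lines, by 0.79 and 0.59, and so did Itga8, an RGD-binding partner of Itgb1, by 0.78 and 1.20. The laminin receptor chain Itga7 fell by 0.60 in KO1 and by 2.67 in KO2. Itga2b, the platelet chain, rose by 1.03 in KO1 and fell by 1.01 in KO2, at a low level of 1.71 ± 0.127 CPM in Ctrl. The summed level of 5 platelet and megakaryocyte markers was 5.53 CPM in Ctrl, 6.75 to 9.42 in KO1 and 2.00 to 3.09 in KO2. This sum includes Itga2b, at 3.50 ± 0.853 CPM in KO1 and 0.850 ± 0.0313 in KO2, so it moves with Itga2b in part by construction. Only 2 of the 5 markers were tested, and the part of the other markers in the Itga2b values was not tested. Itga10, another collagen receptor chain, was 1.44 ± 0.319 CPM in Ctrl, 1.75 ± 0.341 in KO1 and 11.1 ± 1.22 in KO2, where its rise was 2.95 (edgeR adjusted p = 3.17e-07). The partner of Itga4 and Itgae in lymphocytes, Itgb7, was 33.7 ± 9.58, 35.3 ± 5.01 and 53.6 ± 3.53 CPM, and passed in KO2 at 0.67 (edgeR adjusted p = 0.00804) but not in KO1 at 0.07 (edgeR adjusted p = 0.808). Itga4 and Itgae had 148 and 129 counts over all libraries.

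**Figure D4:**
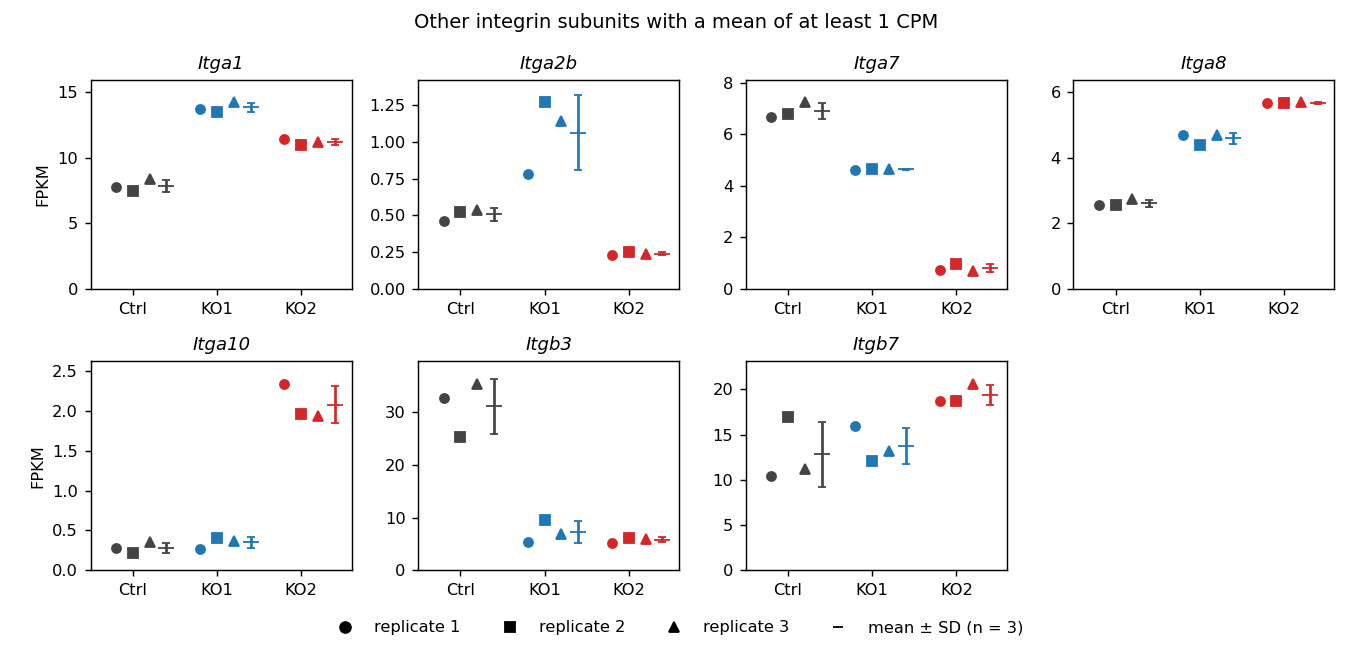
FPKM (y axis, from 0, a separate scale per panel) of the 7 other integrin subunits with a mean of at least 1 CPM in Ctrl, KO1 and KO2; points are libraries and bars mean ± SD (n = 3). Itgb3 is lower in all knockout libraries, and Itga10 is higher in all KO2 libraries than in any other library.

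Of 27 tested matrix ligands of integrins, 7 rose and 5 fell in KO1 and 6 rose and 10 fell in KO2, with median log2 fold changes of 0.13 and -0.31, beside 30.5% and 54.1% of all tested genes called. Lamb3, a chain of laminin-332, was 10.3 ± 2.51 CPM in Ctrl, 3.42 ± 0.621 in KO1 and 0.145 ± 0.137 in KO2, with log2 fold changes of -1.59 and -6.10, the latter -6.88 without KO2 replicate 2. The collagen gene Col1a1 was 2.25 ± 0.380, 0.569 ± 0.291 and 0.540 ± 0.651 CPM, with log2 fold changes of -1.98 (edgeR adjusted p = 0.0408) and -2.05 (edgeR adjusted p = 0.023). KO2 replicate 2 held 38 counts of Col1a1 and the other KO2 libraries 7 and 3, and without it the KO2 value was -3.72. The KO2 call was lost without Ctrl replicate 3, KO2 replicate 1 or KO2 replicate 3, at -1.91, -1.69 and -1.57, and the KO1 call without any single library of Ctrl or KO1, at -1.63 to -2.37. Lama4, a vascular and mesenchymal laminin chain, moved in opposite directions: it was 54.7 ± 2.64 CPM in Ctrl, 145 ± 12.7 in KO1 and 0.270 ± 0.150 in KO2. Markers of fibroblasts summed to 318 to 328 CPM in Ctrl, 275 to 301 in KO1 and 152 to 160 in KO2, mostly Pdgfra. Endothelial markers summed to 10.7 to 15.6, 4.07 to 4.21 and 2.65 to 7.19 CPM, the last value in KO2 replicate 2. Pecam1, Cdh5, Kdr and Tek each had means under 1 CPM in every group, so other listed markers made up most of the Ctrl sum. Only 2 endothelial markers were tested, and 1 was lower in each line. Pecam1 was not called, at 0.0786 ± 0.0163 CPM in Ctrl, 0.463 ± 0.0801 in KO1 and 0.339 ± 0.502 in KO2. In Ctrl, KO1 and KO2 in turn, 2, 0 and 0 of 7 listed fibroblast markers and 2, 1 and 0 of 7 endothelial markers were at 0. Their part in the ligand values was not tested.

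Of 8 tested counter-receptors on other cells, 1 rose and 3 fell in KO1 and none rose and 6 fell in KO2, with medians of -0.32 and -0.77. Of all tested genes 30.5% were called in KO1 and 54.1% in KO2, the latter 24.6% higher and 29.5% lower. Icam1, which binds the Itgb2 integrins, was 53.8 ± 2.44 CPM in Ctrl, 3.01 ± 0.405 in KO1 and 0.145 ± 0.103 in KO2. Its log2 fold change was -4.16 ± 0.157 in KO1 (edgeR adjusted p = 1.40e-08) and -8.49 ± 0.235 in KO2 (edgeR adjusted p = 3.04e-10), so it fell in both lines in which Itgb2 rose. Madcam1, a ligand of Itgb7 pairs, had 266 counts in Ctrl, 2 in KO1 and 1 in KO2, or 0.767% (95% interval from 0.0924 to 2.80) and 0.428% (0.0108 to 2.40) of the Ctrl level, with intervals for counting error only. Icam5 was 1.99 ± 0.0699, 2.45 ± 0.292 and 0.910 ± 0.322 CPM.

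Inside the cell, 33 activators, actin linkers and adaptors were tested, of which 9 rose and 10 fell in KO1 and 6 rose and 14 fell in KO2, with medians of -0.11 and -0.13. For this and the next list, the share of all tested genes called was 30.5% in KO1 and 54.1% in KO2. The tensin Tns1, a linker of beta tails to actin, was 7.90 ± 1.40 CPM in Ctrl, 12.1 ± 1.89 in KO1 and 50.5 ± 2.18 in KO2. Nexn, an actin-binding protein, fell by 1.31 in KO1 and 0.62 in KO2 on the log2 scale. Of 27 adhesion kinases and downstream genes, 2 rose and 6 fell in KO1 and 7 rose and 6 fell in KO2, with medians of -0.04 and -0.03. The KO1 total of 8 became 5 without Ctrl replicate 3, KO1 replicate 3 or KO2 replicate 3. Of the kinases, Ptk2 fell by 1.37 in KO1 (edgeR adjusted p = 9.41e-07) and was at -0.13 in KO2 (edgeR adjusted p = 0.247). Ptk2b rose by 0.42 and 0.54. Yes1 and Pak1 fell in KO2 only, by 0.36 and 0.82, and Src, Fyn, Csk and Pak2 passed in neither line. The scaffold Nedd9 rose by 0.79 in KO1 and fell by 1.16 in KO2, and caveolin Cav1 fell by 0.51 and 1.13. Elmo1, which acts upstream of Rac, was 4.93 ± 1.48 CPM, 4.34 ± 0.407 and 1.60 ± 0.269.

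Of 16 tested hemidesmosome genes and lateral partners, 2 rose and 6 fell in KO1 and 3 rose and 2 fell in KO2, with medians of -0.06 and -0.03. For this list and the traffic genes, the share of all tested genes called was again 30.5% in KO1 and 54.1% in KO2. The KO2 total of 5 became 3 without KO2 replicate 1 or 2 and 8 in a fit of Ctrl and KO2 alone. Of the hemidesmosome genes, Plec fell by 0.37 in KO1 (edgeR adjusted p = 0.00276) and was at -0.02 in KO2 (edgeR adjusted p = 0.856). Dst and Cd151 passed in neither line, nor did Col17a1, which had 144 counts over all libraries. Lgals1, a galectin that binds Itgb1, was 3144 ± 143 CPM in Ctrl, 1307 ± 129 in KO1 and 4851 ± 213 in KO2, opposite in the lines. Cd47, which associates with Itgb3 integrins, rose by 0.25 in KO1 and 1.09 in KO2, and the urokinase receptor Plaur fell by 0.62 and 0.26. The Plaur fall in KO2 missed the threshold without Ctrl replicate 2, KO2 replicate 1 or KO2 replicate 2, at -0.17, -0.23 and -0.23. Of 16 integrin traffic genes 2 rose and 3 fell in KO1 and 4 rose and 7 fell in KO2, with medians of 0.07 and -0.15 and the KO1 total at 3 without Ctrl replicate 1. Numb, an endocytic adaptor of integrins, fell by 0.49 and 0.75. The recycling factor Acap1 was 91.8 ± 10.3, 111 ± 10.7 and 48.9 ± 4.44 CPM, and the early endosome GTPase Rab5a 112 ± 11.3, 99.2 ± 24.8 and 69.5 ± 3.03. In KO1 neither passed, but Acap1 did without Ctrl replicate 3 or KO1 replicate 1, at 0.37 and 0.33, and Rab5a without KO1 replicate 1, at -0.38.

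The genes most alike to the subunits called in both lines were found by Pearson's r of log2 CPM over the 9 libraries, among 10073 genes with a mean of at least 5 CPM. The libraries share their 3 groups, so this is a description with no test. For Itga2 they were Sgpp1 at r = 0.997, a sphingosine phosphatase, Slc39a14 at 0.991, a metal transporter, and Ptgs2 at 0.991, the inducible cyclooxygenase. Ptgs2 stood at 448 CPM in Ctrl, 117 in KO1 and 76.8 in KO2. For Itgb2 they were Ltbp3 at 0.998, which binds latent TGF-beta, the R-spondin receptor Lgr6 at 0.996 and Ramp1 at 0.996. For Itgb4 they were the growth factor receptor Fgfr2 at 0.997, the chloride channel Ano1 at 0.996 and App at 0.996. Itgb2 and Itgb4 followed each other at 0.981 over the same libraries, Itga3 and Itgb4 at 0.937, and Itga2 and Itgb3 at 0.887. Known partners were less alike: Itga6 and Itgb4 were at 0.476, Itgav and Itgb5 at -0.005, and Itgav and Itgb3 at -0.204. With Itgb1, Itga2 was at -0.245, Itga3 at -0.324, Itga5 at 0.687, Itga6 at -0.668 and Itgav at -0.497.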

How the data were processed

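RNA of 9 libraries was sequenced, and the submitters' processing notes name HISAT, RSEM, mm10 and GRCm38 without versions or roles. The deposited tables give for each gene an expected count, an estimate that the authors did not normalise, and FPKM, a value the authors adjusted for library size and transcript length. No FPKM under 0.01 is listed, so an unlisted gene was taken as 0. Groups came from the titles. The design text names the sixth and ninth samples differently. Strand use in counting is not given in the sources used here.

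Rounded expected counts went into a robust quasi-likelihood test of edgeR 4.0.16 (R 4.3.3) after filterByExpr and TMM, with all 9 libraries in 1 fit and 6 residual degrees of freedom. Totals ran from 30655924 to 35406395, and 13682 genes were tested with a common biological coefficient of variation of 11.1%. All tested genes entered the Benjamini-Hochberg adjustment, with a threshold of 0.05. CPM were TMM scaled, and log2 CPM used a prior count of 2. The test was tried first on simulated counts without a difference between KO1 and KO2, and the outcome is not given here. Same-numbered libraries of different groups deviated with r from -0.34 to 0.05, and other-numbered from -0.17 to 0.34, so numbers were not taken to pair them.

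The members and the gene lists were chosen with earlier results of these data known. The named genes are the 9 subunits, Malat1, other subunits of at least 1 CPM, and up to 3 genes of each list: those called in both lines the same way by 1 log2 unit or more, then those with the largest summed changes. Of these, 1 is not reported here. Those most correlated with Itga2, Itgb2 and Itgb4 were added. The adhesion kinases and hemidesmosome genes are given outside this rule, a choice made after seeing the data. Krt, leukocyte and other markers are given by summed levels. Alternatives were other scalings, filters, DESeq2 1.42.0, limma 3.58.1 (voom, and log2 of FPKM plus 1 or 0.1), only the groups compared, a replicate block, and each library left out. Leaving libraries out for shares and ratios was chosen after seeing the data. Promoter windows came from RefSeq on GRCm38.p6. Positions came from a RefSeq table on GRCm38 that held all 9 subunits, and exon overlaps from GENCODE M21.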

Additional observations from a re-analysis of the deposited data

Results flagged for a closer look

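Each gene here differed between the 2 knockout lines in the direct edgeR test of KO2 against KO1, at an adjusted p under 0.05, as did 55.0% of all tested genes. Values in brackets are log2 fold changes of KO2 against KO1. The targeted Malat1 itself differed (5.21), and the cause of the other differences was not tested.

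Of the subunits described, Itga3 (0.657), Itga6 (0.552), Itgav (0.195), Itgb2 (1.2) and Itgb4 (1.26) were higher in KO2, and Itga2 (-0.622), Itga5 (-0.385) and Itgb1 (-0.192) were lower. Of other integrin subunits, Itga8 (0.412), Itga10 (2.66) and Itgb7 (0.601) were higher and Itga1 (-0.2), Itga2b (-2.04) and Itga7 (-2.07) were lower. The Itga1 difference missed the threshold without KO1 replicate 3 or any single KO2 library, at -0.18 to -0.21.

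Among ligands and counter-receptors, Lamb3 (-4.52), Lama4 (-9.06), Icam1 (-4.33) and Icam5 (-1.43) were lower in KO2. Among linkers and signalling genes, Tns1 (2.06) and Nexn (0.69) were higher and Nedd9 (-1.95), Elmo1 (-1.44) and Cav1 (-0.618) were lower. The lateral partners Lgals1 (1.89), Cd47 (0.842) and Plaur (0.359) were higher, and the traffic genes Numb (-0.26), Acap1 (-1.18) and Rab5a (-0.514) lower. The Rab5a difference missed the threshold without KO2 replicate 2, at -0.48.

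Of the genes most alike to a subunit, Slc39a14 (-0.374) and Ptgs2 (-0.611) were lower in KO2, as was Itga2, and Ltbp3 (0.882), Lgr6 (1.61), Ramp1 (4.05), Fgfr2 (0.802), Ano1 (1.34) and App (0.815) were higher, as were Itgb2 and Itgb4. They were chosen by their correlation with these subunits over the same libraries, so the shared direction follows from that choice.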

How the results depend on the processing

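Of 567 log2 fold changes of the 9 subunits recomputed under 21 alternatives, 502 kept direction and call, 46 lost the call, 2 gained it and 17 changed sign. Itga2, Itgb2 and Itgb4 against Ctrl in both lines, and Itga3 in KO2 and Itga6 in KO1, stayed called under all 21. Of 441 list counts, 10 moved by over 1.5 times. The sign changes were all in values near 0 that were not called, and their cause was not tested. Itga3 in KO1 was 0.0017 with upper-quartile scaling, 0.015 with total-count scaling, 0.022 and 0.023 with limma on FPKM plus 1 and plus 0.1, and 0.022 with no filter, and ran from -0.10 to 0.10 with 1 library left out. Itgb1 in KO2 was -0.0618 under total-count scaling, -0.0619 with limma on FPKM plus 1, with and without the filter, and -0.0623 with FPKM plus 0.1, and ran from -0.014 to 0.038 with 1 library left out. Itgb5 in KO2 against KO1 was -0.0837 under total-count scaling, -0.0771 with limma on FPKM plus 1, with and without the filter, and -0.0814 with FPKM plus 0.1, and ran from -0.037 to 0.084 with 1 library left out. The 8 subunits called between the lines ranged from 5 to 8 with 1 library left out. Of other named genes with 1 library left out, a choice made after seeing the data, values that were not called changed sign for Itgb3 (-0.40 to 0.052) and Col1a1 (-1.74 to 0.42) between the lines, and for Itgb7 (-0.065 to 0.32) and Elmo1 (-0.31 to 0.089) in KO1. The Col1a1 difference passed the threshold without KO2 replicate 2. A fit with a replicate block called 4, 6 and 6 subunits in KO1, KO2 and KO2 against KO1, and 3365, 6726 and 6829 genes in all, where the fit without the block called 4177, 7400 and 7529. With the block the calls of Itgb1 in KO1 and of Itga2 (-0.61, edgeR adjusted p = 0.066) and Itgav between the lines were lost, and no other subunit's call changed. Total-count scaling moved the median of all genes in KO2 to -0.11 against Ctrl and -0.13 against KO1, and the share of calls that were higher from 45.5% to 35.8% and from 46.4% to 33.4%. On the FPKM scale these shares lay from 34.4% to 35.8% and from 31.9% to 33.7%. Counts at the level of Madcam1 or the leukocyte alpha chains limit what can be said of them at this depth.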
